A study of Mus musculus with 2 samples.

Results

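The MHC class I antigen processing genes described here are Psmb8, Psmb9, Psmb10, Tap1, Tap2, Tapbp, B2m, H2-K1, H2-D1 and Nlrc5. The 10 genes were chosen by name from the pathway, and every probe whose accession belongs to one of them was taken, which gave 12 probes and 31 spots per array among 55681 probes other than controls. The series compared embryonic stem cells (ESCs) of the mouse, which can form every tissue of the embryo, with ESCs labelled as overexpressing HDAC6, a mainly cytoplasmic deacetylase. Both kinds of cell were of the B6C3F1 strain, a cross of C57BL/6 and C3H mice, at passage 26. Both were grown with LIF on mouse embryonic fibroblast feeders arrested with mitomycin C. On each of 2 arrays, Cy3-labelled RNA from wild-type (WT) cells was hybridised together with Cy5-labelled RNA from overexpressing cells. The vector, its promoter and the number of clones behind the overexpressing cells are not given in the sources used here.

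MHC class I molecules show short peptides from inside the cell to cytotoxic T cells. The peptides are cut by the proteasome, in which interferon can exchange the 3 constitutive catalytic subunits for the immunoproteasome subunits encoded by Psmb8, Psmb9 and Psmb10. They enter the endoplasmic reticulum through the transporter made of Tap1 and Tap2, and tapasin, the product of Tapbp, bridges that transporter and the class I molecule during loading. The class I molecule pairs a polymorphic heavy chain, such as those of H2-K1 and H2-D1, with the invariant light chain beta-2-microglobulin, encoded by B2m. Nlrc5 encodes the transactivator of class I promoters. Pluripotent cells are known for low class I expression at the cell surface.

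Of the 10 genes, 8 have a window in the RefSeq promoter table of build GRCm38.p6. Shown are the 250 bases before the annotated start of Psmb8, B2m, H2-K1 and H2-D1, and the whole stretch of 225 bases between the starts of Psmb9 and Tap1, which are transcribed away from each other. These were chosen because Psmb8 had the lowest ratio of the members, because Psmb9 and Tap1 share their upstream stretch, and because B2m, H2-K1 and H2-D1 form the class I molecule and did not move alike. Sequences run 5′ to 3′ on the gene's strand, and on the plus strand for the shared stretch. Capitals mark matches on either strand to 4 motifs, a pair of GAAA repeats 2 bases apart (the core of the interferon-stimulated response element), TTCNNNGAA (the gamma interferon activation site), GGGNNTTCC (a kappaB-like site) and CCAAT.
Psmb8, chr17:34197945-34198194, plus strand: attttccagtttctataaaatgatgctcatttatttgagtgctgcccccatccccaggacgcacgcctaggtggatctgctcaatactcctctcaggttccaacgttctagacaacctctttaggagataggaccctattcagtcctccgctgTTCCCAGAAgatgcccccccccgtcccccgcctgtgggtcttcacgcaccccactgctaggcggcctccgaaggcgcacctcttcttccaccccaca
Psmb9-Tap1, chr17:34187331-34187555, plus strand: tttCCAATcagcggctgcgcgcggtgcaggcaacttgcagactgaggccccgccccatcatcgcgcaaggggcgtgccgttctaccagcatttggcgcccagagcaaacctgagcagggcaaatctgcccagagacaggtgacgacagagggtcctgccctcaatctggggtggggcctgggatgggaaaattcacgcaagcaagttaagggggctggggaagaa
B2m, chr2:122147437-122147686, plus strand: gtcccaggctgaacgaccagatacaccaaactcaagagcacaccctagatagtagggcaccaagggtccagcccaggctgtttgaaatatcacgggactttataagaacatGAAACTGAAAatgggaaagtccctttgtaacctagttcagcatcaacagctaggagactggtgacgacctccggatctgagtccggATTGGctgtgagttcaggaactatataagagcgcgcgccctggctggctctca
H2-K1, chr17:34000334-34000583, minus strand, the second of 2 annotated starts: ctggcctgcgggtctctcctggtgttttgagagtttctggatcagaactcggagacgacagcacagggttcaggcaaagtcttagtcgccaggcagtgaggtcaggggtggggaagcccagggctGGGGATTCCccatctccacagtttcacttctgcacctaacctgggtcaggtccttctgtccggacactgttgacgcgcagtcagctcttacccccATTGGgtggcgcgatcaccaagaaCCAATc
H2-D1, chr17:35262844-35263093, plus strand: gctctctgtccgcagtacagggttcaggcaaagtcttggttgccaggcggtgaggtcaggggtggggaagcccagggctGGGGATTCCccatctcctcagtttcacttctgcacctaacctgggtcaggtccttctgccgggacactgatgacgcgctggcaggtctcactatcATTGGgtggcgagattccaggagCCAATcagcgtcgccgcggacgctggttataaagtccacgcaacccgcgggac
A match describes letters in these windows and is neither a bound site nor a cause. The GAAA pair was present upstream of B2m, beginning 139 bases before its start, and in 2.98% of 32851 promoter windows of the same length. The other sequences shown held no exact match, and looser forms of the interferon-stimulated response element were not searched. TTCNNNGAA was present upstream of Psmb8 and in 7.02% of all windows. The windows of H2-K1 and H2-D1 both held GGGGATTCC, a match to GGGNNTTCC, which 4.98% of all windows matched. Both lay in a run of 47 bases shared letter for letter by these genes. Aligned with free ends, the H2-K1 and H2-D1 windows were 86.8% identical over the 204 columns where they overlap. CCAAT, found in 33.8% of all windows, was present in each sequence shown except that of Psmb8.

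The arrays were alike in brightness. Between 68.0% and 68.8% of probes were well above background in each channel of each array, and median raw signals lay between 432.5 and 462 over median backgrounds of 53 to 58. Hdac6 itself was measured by 2 probes, whose log2 ratios of overexpression over WT were 0.16 and 0.18 in replicate 1 and -0.038 and -0.0055 in replicate 2 (adjusted p = 0.67 and 0.52). With median centring of raw signals and no loess, their means were 0.52 and 0.50, against 0.060 and 0.089. Whether these probes can take up the transcript of the introduced gene is not given, so they do not check the labels, and every direction refers to the channel as labelled. The labels call the arrays biological replicates, but the names of the deposited data give both arrays one number for WT and one for overexpression. Separate cultures are therefore not assured, and the p-values measure only the spread between these arrays, which may be technical. Both arrays carry the dyes the same way round, so a dye effect cannot be told apart from the overexpression. A gene was called by its brightest probe when limma gave an adjusted p under 0.05 over 38393 probes, a rule met by 47.1% of the 16069 named genes tested, 27.7% lower and 19.4% higher in the overexpression channel. Over all probes the shares were 23% and 23.1%. In bulk RNA, fewer cells of a type and less RNA per cell cannot be told apart.

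Most of the 10 class I genes were lower in the overexpression channel, and the light chain and one heavy chain were higher. Of the 10 genes, 6 fell (Psmb8, Psmb9, Psmb10, Tap2, Tapbp and H2-K1), where 27.7% of all genes did, and 2 rose (B2m and H2-D1), where 19.4% did. Tap1 and Nlrc5 did not pass the test. Psmb8 and Psmb9 fell at least 2-fold on each array, as did 4.39% of all genes, and 0 members rose that far, as did 3.03% of all genes. Against a 1.5-fold change as the null, limma kept 3 members, Psmb8, Psmb9 and Psmb10. The median log2 ratio of the 10 genes was -0.53, against -0.061 over all genes tested.

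**Figure D1:**
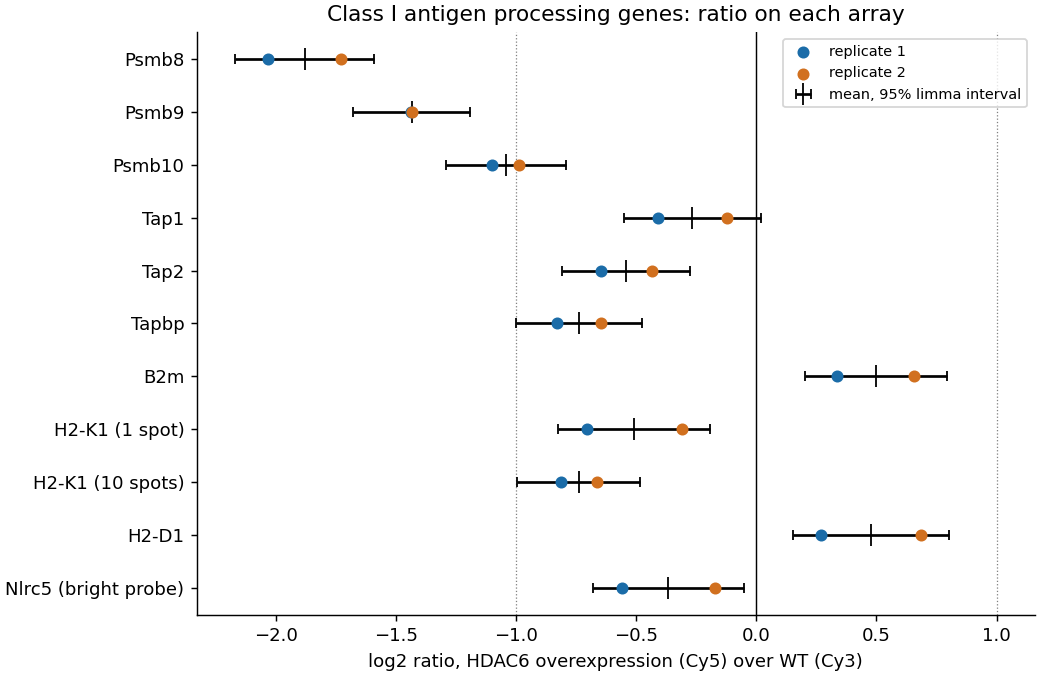
Log2 ratio of HDAC6 overexpression (Cy5) over WT (Cy3) for each of the 11 tested probes, with both arrays as points, the mean as a tick and the 95% limma interval as a bar; dotted lines mark a 2-fold change. Psmb8 and Psmb9 lie beyond -1 on both arrays, and B2m and H2-D1 lie above 0 on both.

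All 3 immunoproteasome subunits fell. Psmb8, the chymotrypsin-like subunit that replaces Psmb5, had processed signals of 10106 and 11009 in WT and 2468 and 3319 in the overexpression channel (replicates 1 and 2). Its overexpression signals were the lower ones on both arrays. The log2 ratio was -1.88 ± 0.21 (SD, n = 2), which put the overexpression channel at 27.1% of WT. The limma 95% interval of the log2 ratio was -2.17 to -1.59 (adjusted p = 0.00034). Of all genes tested, 1.03% had a lower ratio.

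Psmb9, which replaces Psmb6, had 7901 and 8135 in WT and 2917 and 3013 in the overexpression channel. The pairs did not overlap, and the arrays differed by less than for any other member, at -1.44 and -1.43 (mean -1.44 ± 0.0035, 2.70-fold lower, adjusted p = 0.00046). Psmb10, which replaces Psmb7, had 24784 and 24807 in WT and 11560.3 and 12518 in the overexpression channel, a mean log2 ratio of -1.04 ± 0.080 (2.06-fold lower, adjusted p = 0.0012). With median centring of raw signals and no loess, Psmb10 had -0.58. Psmb10 lies on chromosome 8, whose 850 tested genes had a median log2 ratio of -0.25 and were lower in 44.1% of cases. The part of that chromosome-wide shift in the ratio of Psmb10 was not tested.

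The constitutive counterparts did not follow as a set. Psmb5 had a log2 ratio of -0.13 ± 0.12 (adjusted p = 0.36) and Psmb7 one of 0.023 ± 0.16 (adjusted p = 0.88), while Psmb6 fell (-0.85 ± 0.081, adjusted p = 0.0021). With median centring of raw signals in place of a loess or the dye normalization of the scanner software, Psmb6 had -0.15 and Psmb5 turned to 0.51, so these directions depend on the scaling. Psmb6 lies on chromosome 11, where the median of 1340 tested genes was -0.51. On replicates 1 and 2, the log2 ratio of Psmb8 minus that of Psmb5 was -1.99 and -1.52. For Psmb9 minus Psmb6 it was -0.65 and -0.53, and for Psmb10 minus Psmb7 it was -1.01 and -1.12. Each immunoproteasome subunit was therefore the lower one of its pair on both arrays, a difference that was not tested beyond these values. Of the proteasome activator genes, the interferon-inducible pair Psme2 (-0.81 ± 0.19, but -0.023 under that centring) and Psme1 (-0.61 ± 0.077, and -0.25 centred) fell, and Psme3, which encodes a nuclear activator, rose (0.34 ± 0.022, adjusted p = 0.035).

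**Figure D2:**
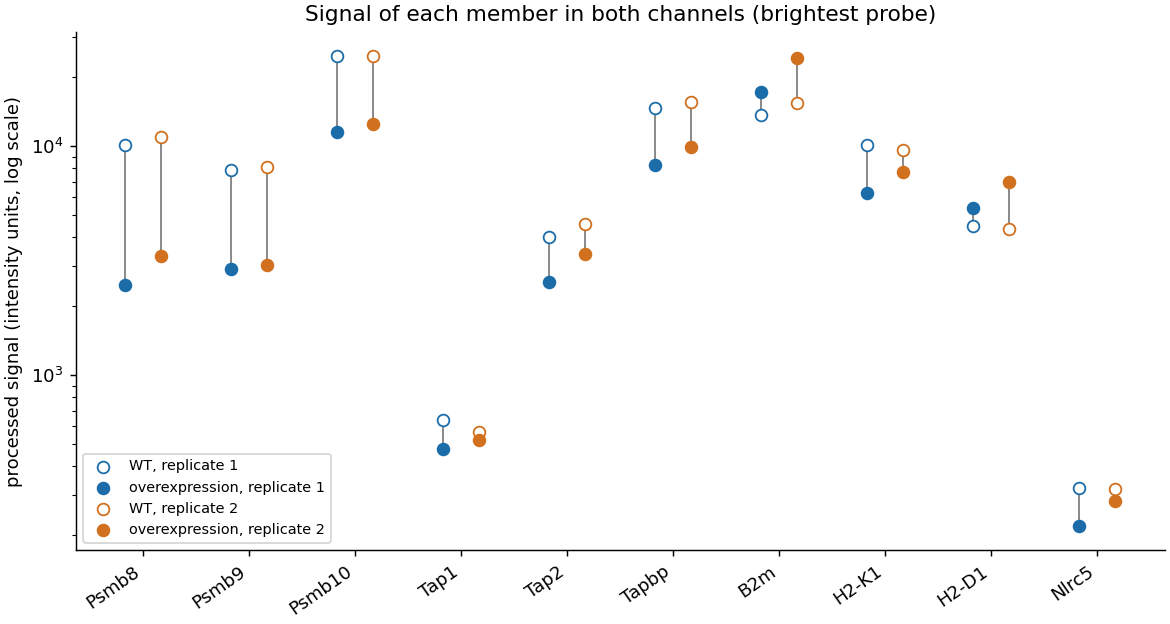
Processed signal of the brightest probe of each member (intensity units, log scale) in the WT channel (open) and the overexpression channel (filled) of each array. Lines join the channels of one array, and levels are to be read within a gene, since probes differ in brightness. The lines of Psmb8 are the longest, and the filled points of B2m and H2-D1 stand above the open ones.

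The peptide transporter and its bridge to class I changed less. Tap2, which encodes one chain of the transporter, had 4012 and 4585 in WT and 2558 and 3388 in the overexpression channel, a log2 ratio of -0.54 ± 0.15 (68.6% of WT, adjusted p = 0.011). Tapbp had 14672 and 15537 in WT against 8239 and 9934, a log2 ratio of -0.74 ± 0.13 (59.9% of WT, adjusted p = 0.0037). In both genes, each overexpression signal lay below each WT signal.

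Tap1, the gene of the other chain, had 636 and 567 in WT and 478 and 521 in the overexpression channel. The overexpression signal was the lower one on both arrays, and its log2 ratios were -0.41 and -0.12. The mean of -0.27 ± 0.21 missed the threshold (adjusted p = 0.11, 95% interval -0.55 to 0.019) and passed it with normexp and loess on the raw signals (-0.26, adjusted p = 0.042; from 0.0089 to 1 over the 10 settings with a test). Its probe was printed at 10 spots per array, of which 9 in replicate 1 and 10 in replicate 2 entered the mean. Every spot was below 0, between -0.55 and -0.30 in replicate 1 and between -0.18 and -0.032 in replicate 2. The spots of the 2 arrays did not overlap, and their SD within an array was 0.075 and 0.045, so the uncertainty of Tap1 lay between the arrays and not among the spots.

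Tap1 and Psmb9 leave from opposite ends of the 225 bases printed above. The log2 ratio of Psmb9 minus that of Tap1 was -1.03 in replicate 1 and -1.31 in replicate 2. Along chromosome 17 the order of genes is Psmb9, Tap1, Psmb8, Tap2, and the log2 ratios alternated in that order, at -1.44, -0.27, -1.88 and -0.54. The proteasome subunit genes were thus both lower than the transporter gene next to them on both arrays. Nearby class II genes ranged from -0.93 (H2-DMb1, which encodes a chain of the class II loading factor) to 0.29 (H2-Ob, which turned to -0.082 with normexp and loess). The 811 tested genes of chromosome 17 had a median of -0.041.

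**Figure D3:**
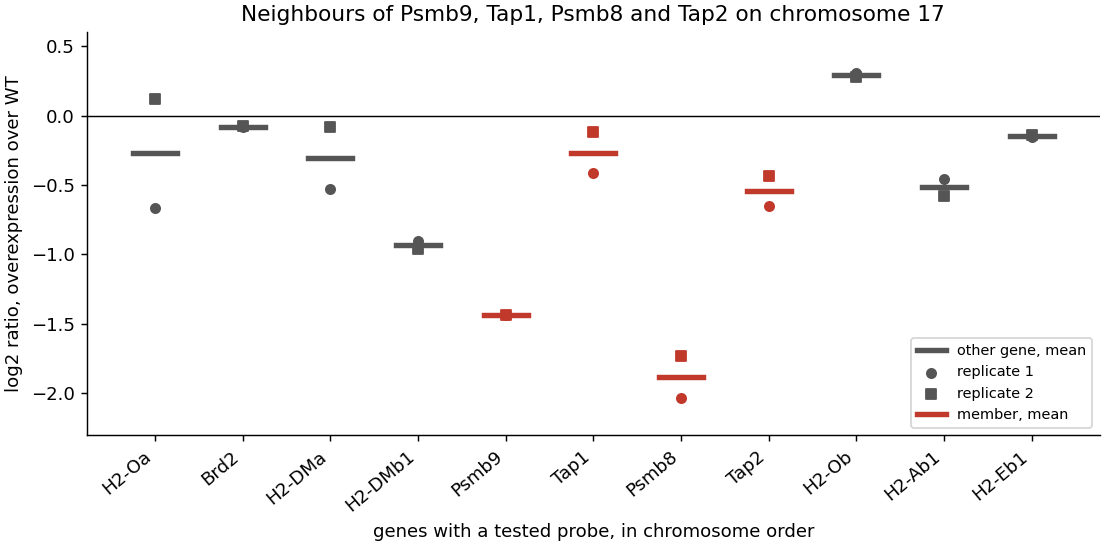
Log2 ratio of overexpression over WT for the genes with a tested probe around Psmb9, Tap1, Psmb8 and Tap2, in chromosome order and not to distance, with replicate 1 as circles, replicate 2 as squares and the mean as a bar. Psmb9 and Psmb8 (-1.44 and -1.88) lie below Tap1 and Tap2 (-0.27 and -0.54), which alternate with them.

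**Figure D4:**
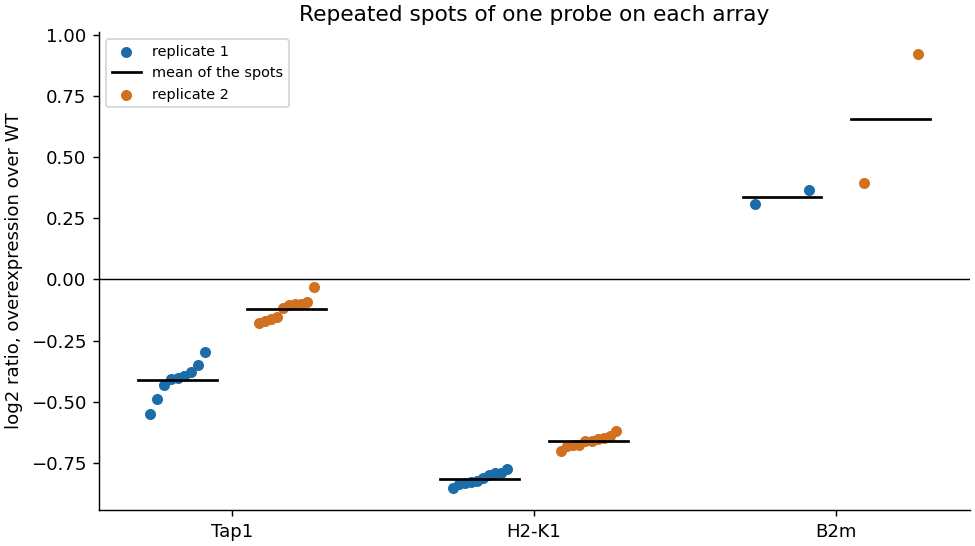
Log2 ratio of every spot of the 3 member probes printed more than once, by array, with the mean of the spots as a bar. The spots of Tap1 and of H2-K1 form tight groups that differ between arrays, while the 2 spots of B2m lie apart in replicate 2, at 0.39 and 0.92.

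B2m, the shared light chain, moved against the processing genes. Averaged over its spots, its signals were 13705 and 15443 in WT and 17305 and 24374 in the overexpression channel. Both overexpression averages thus lay above both WT averages. Single spots overlapped, since 1 WT spot of replicate 2 had 19502 and the overexpression spots of replicate 1 had 17271 and 17340. The log2 ratios of B2m, 0.34 and 0.66, had a mean of 0.50 ± 0.23 (1.41-fold higher, 95% interval 0.20 to 0.79, adjusted p = 0.019). Its 2 spots had 0.31 and 0.37 in replicate 1 but 0.39 and 0.92 in replicate 2, an SD of 0.37 there, against a median SD of 0.032 over 339 probes with repeated spots on that array. Without the loess step, after median centring, the ratio was 0.93. Of 20 fibroblast markers, 17 were higher in the overexpression channel and 0 lower (19.4% and 27.7% of all genes were). Of 20 primitive endoderm markers, 19 were higher and 1 lower. The part of these cells in the ratio of B2m was not tested.

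H2-K1, a classical heavy chain, was measured by 2 probes that both fell. The probe with 1 spot had 10137 and 9601 in WT and 6219 and 7735 in the overexpression channel, a log2 ratio of -0.51 ± 0.28 (adjusted p = 0.023). The probe with 10 spots had 10171 and 10420.3 in WT and 5778 and 6584 in the overexpression channel, a log2 ratio of -0.74 ± 0.11 (59.9% of WT, adjusted p = 0.0034). Its 10 spots lay between -0.85 and -0.77 in replicate 1 and between -0.70 and -0.62 in replicate 2. Both probes thus gave lower signals on both arrays, and the spread among spots (SD 0.025 and 0.023) was smaller than the step between arrays.

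H2-D1, the other classical heavy chain, went the opposite way. It had 4464 and 4343 in WT and 5386 and 6989.7 in the overexpression channel, a log2 ratio of 0.27 and 0.69 (mean 0.48 ± 0.29, 1.39-fold higher, adjusted p = 0.030). Within each array, H2-K1 by its brighter probe, that with 1 spot, minus H2-D1 had a mean of -0.99 ± 0.016 on the log2 scale. By this probe the gap changed by less between arrays than either ratio did. That did not hold for the H2-K1 probe with 10 spots, which moved by 0.15 between arrays while H2-D1 moved by 0.42. H2-D1 has 1 probe with 1 spot, and its call was lost when dim probes were not removed (adjusted p = 0.058; from 0.0025 to 1 over the 10 settings with a test). Class I heavy chain genes are similar in sequence to one another, and their alleles differ between C57BL/6 and C3H. How far each probe takes up RNA of other class I genes or alleles is not known from the files, so the values of single heavy chains are uncertain.

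Of 26 other class I and class I-like heavy chain genes listed, 17 were tested, with a median log2 ratio of -0.25. Of those tested, 7 fell and 1 rose (27.7% and 19.4% of all genes did). Among those that fell were H2-Q8 (-1.39 ± 0.096), H2-Q1 (-1.23 ± 0.44) and H2-M3 (-1.14 ± 0.027), a non-classical gene whose product presents formylated peptides. H2-T23, which encodes Qa-1, had -0.25 ± 0.25 (adjusted p = 0.15) and did not pass.

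Nlrc5, the transactivator, had 322 and 319.6 in WT and 219 and 283 in the overexpression channel by its brighter probe. It was lower on both arrays, with log2 ratios of -0.56 and -0.17, but the mean of -0.37 ± 0.27 missed the threshold (adjusted p = 0.060). It passed with normexp and loess (-0.34, adjusted p = 0.014; from 0.0049 to 1 over the 10 settings with a test), and also when probes had to be well above background in both channels (adjusted p = 0.040) or when the prior followed intensity (adjusted p = 0.039). The dimmer probe had 27.3 and 36.0 in WT and 15.4 and 14 in the overexpression channel. It was not well above background in either channel, and no fold is given for it. Like Psmb10, Nlrc5 lies on chromosome 8, with its median of -0.25.

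Of the regulators of class I promoters and of interferon signalling listed, 15 of 16 were tested. Of these, 4 were lower and 1 higher (27.7% and 19.4% of all genes were), with a median of -0.20. Irf1, an interferon-induced activator of class I genes, had 9990.3 and 12094 in WT and a log2 ratio of -1.43 ± 0.19 (2.70-fold lower, adjusted p = 0.00068). Irf1 also lies on chromosome 11, whose median was -0.51. Irf8, an interferon regulatory factor of blood cells, had -0.97 ± 0.00077, and Rfxank, a subunit of the complex that binds the X box of class I and class II promoters, -0.57 ± 0.048. Both lie on chromosome 8.

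Among interferon receptors, their kinases and their inhibitors, 2 of 9 fell and 2 rose (27.7% and 19.4% of all genes did). The median was -0.15. Socs1, an inhibitor of this signalling that interferon itself induces, was 2.01-fold lower (-1.01 ± 0.0083, adjusted p = 0.0012). Ifngr2, a chain of the interferon gamma receptor, was higher (0.72 ± 0.13, adjusted p = 0.0040). Socs3, an inhibitor of LIF signalling on chromosome 11, had -0.49 ± 0.046 (adjusted p = 0.012) and turned to 0.29 under median centring without loess.

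Genes of peptide trimming and loading went both ways, 3 of 9 lower and 2 higher (27.7% and 19.4% of all genes were). Their median was -0.12 (0.30 under median centring without loess). Erap1, the aminopeptidase that trims peptides in the endoplasmic reticulum, had -1.59 ± 0.37 (3.01-fold lower, adjusted p = 0.0011). Tapbpl, which encodes the tapasin-related editor TAPBPR, had -1.35 ± 0.18 (2.56-fold lower, adjusted p = 0.00077). Pdia3, a general folding enzyme that also sits in the loading complex, rose (0.83 ± 0.33, adjusted p = 0.0059, and 1.44 under median centring without loess).

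**Figure D5:**
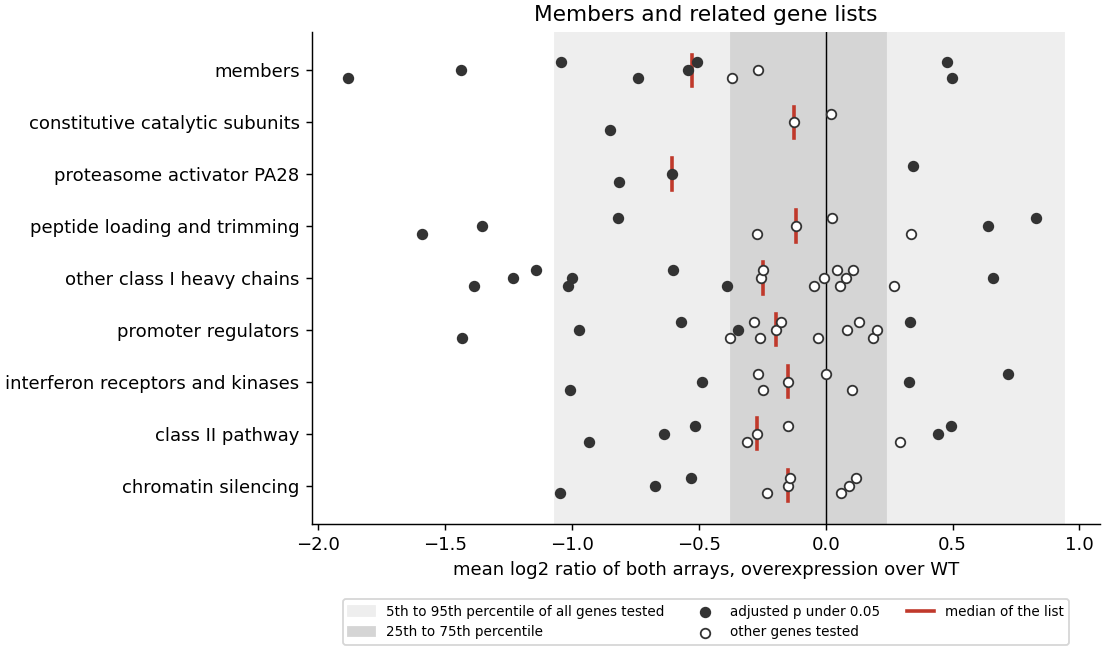
Mean log2 ratio of both arrays for each tested gene of the members and of 8 related lists, filled where the adjusted p was under 0.05, with each list's median in red and percentiles of all 16069 genes tested as grey bands. Psmb8 and Psmb9 and, among others outside the members, Erap1 and Irf1 lie left of the 5th percentile, while several lists have medians inside the middle band.

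Of 9 tested class II genes, 3 fell and 2 rose (27.7% and 19.4% of all genes did), and the median was -0.27. H2-DMb1 (-0.93 ± 0.040), the invariant chain gene Cd74 (-0.64 ± 0.26) and H2-Ab1 (-0.52 ± 0.088) were those that fell. Of 9 chromatin genes linked to silencing, with a median of -0.15 (0.091 under median centring without loess), 3 fell and 0 rose (27.7% and 19.4% of all genes did). They were Suz12 (-1.05 ± 0.11, and -0.57 centred without loess), a Polycomb subunit gene on chromosome 11, Dnmt3a (-0.67 ± 0.36) and Dnmt3b (-0.53 ± 0.027, but 0.091 under median centring without loess), both of which encode DNA methyltransferases. The third probe of Dnmt3b had -0.27 and missed the threshold.

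Markers of other cells moved between the channels too, where 19.4% of all genes were higher and 27.7% lower. The summed signal of 20 fibroblast markers was 178920 and 156891 in WT and 312747 and 404941 in the overexpression channel. For 20 primitive endoderm markers it was 39742 and 45694 in WT and 217489 and 226762 in the overexpression channel, with 19 higher and 1 lower, and 3 of them were not well above background in WT. The fibroblast genes Col1a2, S100a4 and Lum had log2 ratios of 1.71, 1.68 and 1.52, and the endoderm genes Cubn and Gata4 had 5.51 and 4.96. Ttr, not well above background in WT, was at least 31.3-fold higher by the processed signals. Its mean signal was set against the lowest signal among probes well above background, after quantile scaling of brightness between arrays, a bound open to dye bias. With normexp and loess, the log2 ratio of Ttr was 4.22, below that bound. Of 12 ESC markers, 4 were higher (among them Tfcp2l1, 1.5, and Klf4, 0.97) and 4 lower (among them Tdgf1, -1.11, but -0.15 under median centring without loess). Of 10 tested leukocyte markers, 5 were higher (among them Csf1r, 1.23, and Tyrobp, 1.10). Ptprc, which encodes the pan-leukocyte marker CD45, had 0.30 (adjusted p = 0.068). Of 7 endothelial markers, 2 were higher (among them Cdh5, 1.06, or 0.66 centred without loess) and 4 lower (among them Kdr, -1.10, and Emcn). The dimmer probe of Kdr had -0.041 and missed the threshold (adjusted p = 0.75). Emcn, dim in the overexpression channel, was at least 1.91-fold lower by the processed signals, but had a log2 ratio of -0.53 with normexp and loess. The part of these cell types in the ratios of class I genes was not tested.

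The arrays differed in a common direction across the members. In all 10 genes, by the brightest probe, the log2 ratio was higher in replicate 2 than in replicate 1, by 0.0049 (Psmb9) to 0.42 (H2-D1), with a median of 0.30. Over all genes tested the median difference was -0.0026, and 49.6% were higher in replicate 2. The fibroblast markers were higher in replicate 2 in 20 of 20 cases, with a median difference of 0.50. The median log2 ratio of the other class I heavy chain genes was -0.33 in replicate 1 and -0.069 in replicate 2. For the primitive endoderm markers it was 3.14 and 2.96. What lies behind these differences between arrays was not tested. The direction of each brightest member probe was the same on both arrays.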

How the data were processed

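Feature Extraction 11.5.1.1 (Agilent) made both scanner files, per the file headers. The deposited processed intensity values are background-subtracted, spatially detrended and dye-normalized, with fitted values of these steps in the headers, and the deposited log10 ratio is that of processed Cy5 over Cy3. A deposited p-value from the scanner's error model stands beside each ratio and was not used. The deposited series table holds log2 ratios that correlated at -1.00 with the processed ones, so it gives WT over overexpression, which settles its scale and direction. Column medians were -0.0074 and 0.062, and any further centring stays unknown.

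Processed Cy5 over Cy3 was taken as a log2 ratio per spot. Spots of a probe were averaged without outlier-marked ones (269 and 313). Of 55681 probes, 26762 had 1 symbol by RefSeq accession (GRCm38.p6), 0 several and 28919 none. The array grid names another build, so the gene table served for names and order only. Probes that were well above background on both arrays in WT, or on both in overexpression, were tested against 0 with limma 3.58.1 (R 4.3.3; eBayes, two-sided, Benjamini-Hochberg; prior degrees of freedom 4.75, residual 1; typical standard error 0.10). The fit was also run on data simulated from its own fitted variances with few changed probes. Such data can check the code but not the p-values of these arrays. Only 2 arrays, which share 1 slide, limit the precision, and no batch could be tested. As alternatives, raw medians were corrected with normexp (offset 50) and normalized by loess or median centring, and filters, tests and arrays were changed in turn.

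Members, lists and tests were chosen with earlier results of these data known. Named are all members and, of every other list, up to 3 called genes of the same sign on both arrays with the largest absolute change, plus Psmb5, Psmb6, Psmb7, Psme1, Psme2, Irf1 and Hdac6 by role. H2-Ob, H2-T23 and Ptprc were named after their values were seen. Some genes are not reported here. Promoter windows were compared with Biopython 1.88.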

Additional observations from a re-analysis of the deposited data

How the results depend on the processing

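No member changed direction under any setting tried. Several genes outside the members did, among them Psmb5, Socs3, Dnmt3b and H2-Ob. The calls of Psmb8, Psmb9 and Psmb10 held in every test. With normexp and loess on the raw medians, Tap1 (-0.26) and Nlrc5 (-0.34) passed the threshold, as they did with median centring and no loess (-0.35 and -0.39), which moved the brightest genes by a median of 0.32 (all genes by -0.0036). Nlrc5 (-0.37) also passed with both channels above background and with an intensity trend. A fit with 1 row per named gene gave 7 members lower in place of 6. Without a filter on dim probes, H2-D1 (0.48) lost its call, leaving 1 member higher. Pathway genes are those of the related lists other than the members and the cell markers, 74 of which were tested. Without that filter, higher pathway genes went from 9 to 5 (of 80) and higher probes from 8873 to 8361 (of 55624). With median centring of raw signals and no loess, higher pathway genes numbered 22 and higher probes 11129. Centring the processed ratio gave 9 and 8374. Tested against a 1.5-fold change, Tap2 (-0.54), Tapbp (-0.74), B2m (0.50), both H2-K1 probes (-0.51 and -0.74) and H2-D1 (0.48) were lost. That test left 0 members higher and 3 lower, 0 and 8 pathway genes, and 1241 and 1586 of all probes (8873 and 8832 before). The rule of 2-fold on both arrays gave 0 and 2 members, 0 and 7 pathway genes, and 1047 and 1363 probes. By the 2-fold rule on 1 array, with the other left out and no test, there were 0 members higher and 2 to 3 lower, 0 to 1 pathway genes higher and 8 to 9 lower, and 1347 to 1860 probes higher and 1693 to 2159 lower. For these changes the cause was not tested, beyond the stricter rules themselves. No further pairing was tried, because WT and overexpression are the channels of one array and the ratio within each array already pairs them. The floor alternative was not run, as no tested member had only 1 channel above background. Dim probes, such as the second of Nlrc5, are limited by signal over background.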

Other observations

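Single probes of the heavy chain family did not always speak alike. H2-Q10 had -0.045 by its brightest probe and -1.75 by its other probe (adjusted p = 0.00037), and H2-K2 had -0.26 (adjusted p = 0.14) and -0.37 (adjusted p = 0.045). Ifnar1, a chain of the type I interferon receptor, had -0.00054 by its brightest probe, with -0.35 (adjusted p = 0.039) and -0.31 (adjusted p = 0.064) by the others. Mr1, a class I-like gene whose product presents vitamin B metabolites, was higher (0.66 ± 0.36, adjusted p = 0.015, and 0.39 under median centring without loess), and so was Calr, which encodes the chaperone calreticulin of the loading complex (0.64 ± 0.16, adjusted p = 0.0065, and 1.33 under that centring). These genes were named after their values were seen.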
